A study of Mus musculus with 12 samples.

Results

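Complex I of the respiratory chain was described through the messages of 34 of its nuclear-encoded subunits. The members were chosen by name, as genes of the Ndufa, Ndufb, Ndufc, Ndufs and Ndufv families, and not by any measured value. All 34 were found among the 41388 gene identifiers of the deposited count files, and all 34 passed the filter on low counts, which left 13364 genes for testing. The tissue was cortex together with hippocampus, taken at postnatal day 21 from mice of the C57/Bl6 strain with the Aldh1L1::RPL10a-eGFP transgene, in which the astrocyte promoter Aldh1l1 drives a ribosomal protein fused to green fluorescent protein. All groups carried this transgene and were treated with cycloheximide, which stalls translating ribosomes, at 1 ug/mL, and with 1 mM of the sodium channel blocker TTX.

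The 12 libraries formed 4 groups of 3. PAP TRAP was the immunoprecipitate of tagged ribosomes from a synaptoneurosome layer, which holds pinched-off synapses and the thin peripheral astrocyte processes around them (TRAP, translating ribosome affinity purification). Its input was the synaptoneurosome layer before precipitation (synaptoneurosome input). Cortex TRAP was the immunoprecipitate of tagged ribosomes from whole tissue, and cortex input was the material before that precipitation. The labels call every sample astrocytes, give all of them the same extract protocol, and do not say whether replicates came from separate animals, so p-values measure the spread between these libraries, which may be technical.

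As background, complex I takes electrons from NADH and passes them through a flavin and a chain of iron-sulfur clusters to ubiquinone, while its membrane arm pumps protons out of the mitochondrial matrix. The N module holds the NADH site, the Q arm holds the iron-sulfur clusters next to the quinone site, and the proximal and distal membrane arms hold the proton pumps together with many small accessory subunits. The pump subunits themselves are encoded by the mitochondrial chromosome. All other subunits are made from nuclear genes on cytosolic ribosomes and imported, while the mitochondrial genes are translated inside mitochondria by ribosomes that do not contain Rpl10a. Astrocytes hold mitochondria in their cell bodies and in their processes.

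Nuclear regulators of respiratory genes known in mammals include NRF1 and YY1, so promoters of members were read for the letters of their sites. The promoters came from RefSeq (GRCm38.p6) and span 250 bases before to 50 bases after the annotated start, 300 bases in all, and 31 of the 34 members had an entry, with 33 promoters among them. The 3 promoters below belong to members that hold such letters and were called in comparisons that follow. Ndufs6 holds both sets of letters, Ndufa6 holds those of NRF1, and Ndufc1 holds those of YY1. They lie on the minus strand at chr13:73328433-73328732, chr15:82354242-82354541 and chr3:51408906-51409205, are written 5′ to 3′ in the direction of the gene, and carry the matched letters in capitals.
Ndufs6: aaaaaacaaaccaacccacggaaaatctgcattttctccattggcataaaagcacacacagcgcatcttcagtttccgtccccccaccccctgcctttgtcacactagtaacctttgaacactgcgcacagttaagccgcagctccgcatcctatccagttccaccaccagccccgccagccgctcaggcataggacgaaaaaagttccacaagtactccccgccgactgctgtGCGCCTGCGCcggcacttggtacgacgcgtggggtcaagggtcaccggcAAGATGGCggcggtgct
Ndufa6: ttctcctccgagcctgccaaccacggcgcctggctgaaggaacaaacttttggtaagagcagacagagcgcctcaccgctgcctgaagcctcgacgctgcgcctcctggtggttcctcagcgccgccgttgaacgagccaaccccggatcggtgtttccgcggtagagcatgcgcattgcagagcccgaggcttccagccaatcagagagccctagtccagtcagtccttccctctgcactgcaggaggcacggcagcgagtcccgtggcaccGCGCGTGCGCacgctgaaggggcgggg
Ndufc1: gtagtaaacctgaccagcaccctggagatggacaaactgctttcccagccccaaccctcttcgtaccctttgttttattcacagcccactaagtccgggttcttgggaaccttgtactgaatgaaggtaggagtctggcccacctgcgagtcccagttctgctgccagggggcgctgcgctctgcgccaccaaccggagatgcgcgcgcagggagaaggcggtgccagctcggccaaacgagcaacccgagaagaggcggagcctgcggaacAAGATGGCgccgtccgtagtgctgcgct
The NRF1 letters, GCGC and TGCGC with any 1 base between them, searched like the others on both strands, were present in 8 of the 33 member promoters (24.2%), belonging to 7 members, and in 4.60% of all 32851 promoters of the same length. The YY1 letters AAGATGGC were present in 7 member promoters (21.2%) and in 2.75% of all. In Ndufc1, Ndufs6 and Ndufs7 the YY1 letters begin 23, 34 and 25 bases from the annotated start, counted downstream. All 7 matches begin downstream of the start, at 23 to 39 bases, and so within the message. The YY1 letters contain ATG, the letters of a start codon, and whether they mark the start of translation was not tested. The letters CCGGAAGT of an ETS site were in 3.03% of member promoters and 3.89% of all, the letters TCAAGGTCA of an estrogen-related receptor site were in 0% and 0.423%, and GGGCGG, the letters of SP1, were in 45.5% and 35.7%. Of the 17 members with a promoter entry among those higher in cortex TRAP than in cortex input, 4 held the NRF1 letters and 4 the YY1 letters. Of all 31 members with an entry, 7 held the NRF1 letters and 7 the YY1 letters. Ndufb11, Ndufa12, Ndufa7 and Ndufb7, also among the members with the largest changes, held neither. A match is a run of letters and not an observed binding site.

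Counts of nuclear genes were 5595315 to 6786096 in PAP TRAP, 1423296 to 2476076 in synaptoneurosome input, 4864787 to 7777763 in cortex TRAP and 5201429 to 6278525 in cortex input. Genes of the mitochondrial chromosome held 40.9 ± 6.08% of gene counts in PAP TRAP and 88.5 ± 4.20% in synaptoneurosome input (mean, SD, n = 3). They held 1.13 ± 0.135% in cortex TRAP and 48.3 ± 3.01% in cortex input. Summed over the 34 members, the count was 4276 to 7057 in PAP TRAP, 1800 to 2505 in synaptoneurosome input, 11182 to 21727 in cortex TRAP and 6546 to 9644 in cortex input. The 16 astrocyte markers held 5.11% to 10.04% of nuclear counts in PAP TRAP, 4.18% to 5.11% in synaptoneurosome input, 7.54% to 10.8% in cortex TRAP and 0.840% to 0.929% in cortex input. The 12 neuronal markers held 0.464% to 0.677% in PAP TRAP, 1.18% to 1.59% in synaptoneurosome input, 0.207% to 0.322% in cortex TRAP and 1.93% to 2.17% in cortex input. None of these astrocyte or neuronal markers was at 0 in any library. Aldh1l1, whose promoter drives the tag, changed by 3.46 ± 0.46 (log2, SE) in cortex TRAP over cortex input (adjusted p = 7.06e-06) and by 1.44 ± 0.44 in PAP TRAP over synaptoneurosome input (adjusted p = 0.0685), both by edgeR's quasi-likelihood test with Benjamini-Hochberg adjustment, which is the test behind every adjusted p given here.

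The members together took 0.0764%, 0.118% and 0.0855% of nuclear gene counts in the 3 PAP TRAP libraries and 0.126%, 0.144% and 0.101% in synaptoneurosome input. Their share was 0.279%, 0.230% and 0.274% in cortex TRAP, against 0.154%, 0.134% and 0.108% in cortex input. Every cortex TRAP library lay above every other library, while PAP TRAP and synaptoneurosome input overlapped. The mean share was 0.0931 ± 0.0216% in PAP TRAP, 0.124 ± 0.0216% in synaptoneurosome input, 0.261 ± 0.0271% in cortex TRAP and 0.132 ± 0.0228% in cortex input (SD, n = 3 each). In such bulk samples, fewer cells of a type and less RNA per cell cannot be told apart.

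**Figure D1:**
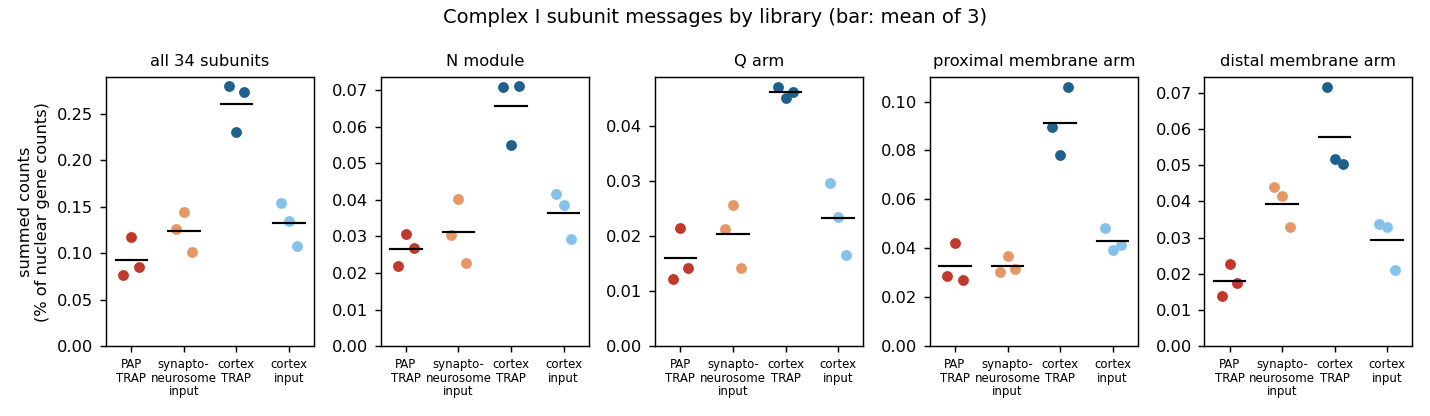
Summed counts of complex I subunits as a percentage of nuclear gene counts (y axis, from 0), for all 34 members and for the 4 regions of the complex, in each library of each group. Points are libraries and bars are means of 3; for all members together the cortex TRAP libraries sit between 0.230% and 0.279% and the PAP TRAP libraries between 0.0764% and 0.118%.

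Cortex TRAP against cortex input asks which complex I messages were richer in the precipitate of tagged ribosomes from whole tissue than in the tissue. Of the 34 members, 18 rose and none fell, where 15.9% of all genes tested rose and 19.5% fell (35.4% called in either direction). The median change of the members was 1.31 on the log2 scale, against 0.05 over all genes tested, and 33 of the 34 changes were above 0. In 25 members every cortex TRAP library lay above every cortex input library, where 27.4% of all genes did so. Counts called ranged from 8 without cortex input replicate 3, and 10 without cortex TRAP replicate 1, to 15 when a library of these groups was left out. With offsets corrected for transcript length, 5 members were called higher and the median was 0.33, where 16% of all genes were called higher, so that the members' share was then near the background.

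In the N module, 4 of 8 members rose. Ndufa12, an accessory subunit of this arm, had 42.9, 34.6 and 38.9 normalized CPM (counts scaled to a common library size by TMM) in cortex TRAP, against 10.5, 6.58 and 10.1 in cortex input. All cortex TRAP libraries stood apart from all cortex input libraries, a rise of 2.09 ± 0.38 (log2, SE), or 4.27-fold (95% interval 2.47 to 7.38, adjusted p = 2.10e-04). Ndufv2, an iron-sulfur subunit of the electron path, had 44.0, 43.0 and 47.0 normalized CPM in cortex TRAP, against 27.2, 20.3 and 18.6 in cortex input. The groups did not overlap and the rise was 1.02 ± 0.36 (adjusted p = 0.0327), but it no longer passed when any 1 library of either group was left out. Ndufv1, which binds NADH and the flavin, had 25.7, 15.2 and 36.1 normalized CPM in cortex TRAP, against 14.8, 13.6 and 8.13 in cortex input. Its groups did not overlap, though cortex TRAP replicate 2 lay close to the inputs, and its change of 1.08 ± 0.50 did not pass (adjusted p = 0.108). Ndufs1, the large iron-sulfur subunit and the longest of the core messages here, had 31.2, 25.5 and 35.0 normalized CPM in cortex TRAP, against 22.4, 29.1 and 17.1 in cortex input. The groups overlapped, with a change of 0.42 ± 0.34 and an interval of -0.28 to 1.12 (adjusted p = 0.360). Ndufa2 came closest among the members that did not pass, at 33.5, 16.8 and 35.4 normalized CPM in cortex TRAP, against 18.3, 11.8 and 5.93 in cortex input. Here cortex TRAP replicate 2 fell below cortex input replicate 1, and the change was 1.25 ± 0.50 (adjusted p = 0.0566).

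In the Q arm, 4 of 7 members rose, Ndufs7, Ndufs8, Ndufa6 and Ndufa7. Ndufs7, which holds the iron-sulfur cluster that hands electrons to ubiquinone, had 39.3, 41.8 and 43.6 normalized CPM in cortex TRAP, against 15.8, 11.6 and 8.68 in cortex input. Ndufs8, which holds the clusters before it, had 36.4, 25.04 and 38.3 normalized CPM in cortex TRAP, against 12.8, 10.4 and 7.27 in cortex input. Both stood clear of the inputs in every library, by 1.79 ± 0.47 for Ndufs7 (adjusted p = 0.00517), which did not pass without cortex input replicate 3, and 1.71 ± 0.38 for Ndufs8 (adjusted p = 0.00139). Ndufs3, another core subunit of this arm, had 8.89, 12.9 and 9.14 normalized CPM in cortex TRAP, against 7.42, 8.31 and 7.03 in cortex input. The ranges were close without overlapping, and the change of 0.44 ± 0.60 did not pass (adjusted p = 0.612).

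The proximal membrane arm had 6 of 9 members higher, Ndufa3, Ndufa11, Ndufa13, Ndufc1, Ndufc2 and Ndufs5. Ndufc1, a small accessory membrane subunit, had 59.0, 74.8 and 106 normalized CPM in cortex TRAP, against 17.4, 12.8 and 23.3 in cortex input. Ndufa3, another small membrane subunit, had 41.3, 49.6 and 48.9 normalized CPM in cortex TRAP, against 12.5, 11.8 and 7.46 in cortex input. In both genes the lowest cortex TRAP library was well above the highest input, and the rises were 2.16 ± 0.38 for Ndufc1 (adjusted p = 1.73e-04) and 2.13 ± 0.38 for Ndufa3 (adjusted p = 1.84e-04).

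In the distal membrane arm, 4 of 10 members rose, Ndufb3, Ndufb9, Ndufb10 and Ndufb11. Ndufb11, an accessory subunit encoded on the X chromosome, had the largest rise of all members. It had 57.8, 30.7 and 40.7 normalized CPM in cortex TRAP, against 8.70, 8.84 and 4.95 in cortex input. The groups were far apart, by 2.52 ± 0.42 or 5.74-fold (95% interval 3.10 to 10.6, adjusted p = 1.06e-04). Ndufb7, which faces the intermembrane space, had 19.9, 9.95 and 10.5 normalized CPM in cortex TRAP, against 7.31, 5.72 and 2.87 in cortex input. The groups did not overlap, yet its change of 1.34 ± 0.59 did not pass (adjusted p = 0.0860). Ndufb2 was the only member with a change below 0, at -0.17 ± 0.57 (adjusted p = 0.850).

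PAP TRAP against cortex TRAP compares the precipitate from the synaptoneurosome layer with that from whole tissue. Genes of the mitochondrial chromosome held a mean of 40.9% of gene counts in PAP TRAP and 1.13% in cortex TRAP. By Spearman's rho over the genes tested, PAP TRAP libraries lay at 0.834 to 0.884 with synaptoneurosome input and at 0.657 to 0.767 with cortex TRAP. How much of PAP TRAP was RNA not held by tagged ribosomes was not tested. Of the 34 members, 19 fell and none rose, where 14.6% of all genes tested fell and 19.3% rose (33.9% called in either direction). The median change was -1.28, against -0.28 over all genes tested, and 33 of 34 changes were below 0. In 28 members every PAP TRAP library lay below every cortex TRAP library, where 26.1% of all genes did so. With length-corrected offsets none of the 34 members was called, where 11.7% of all genes fell and 16.3% rose, the median was -0.06, and 14 of the 19 kept the sign of their change. The count called was 10 without cortex TRAP replicate 3 and 11 without cortex TRAP replicate 1. This comparison and the preceding one share the cortex TRAP libraries, so high values there enter both.

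**Figure D2:**
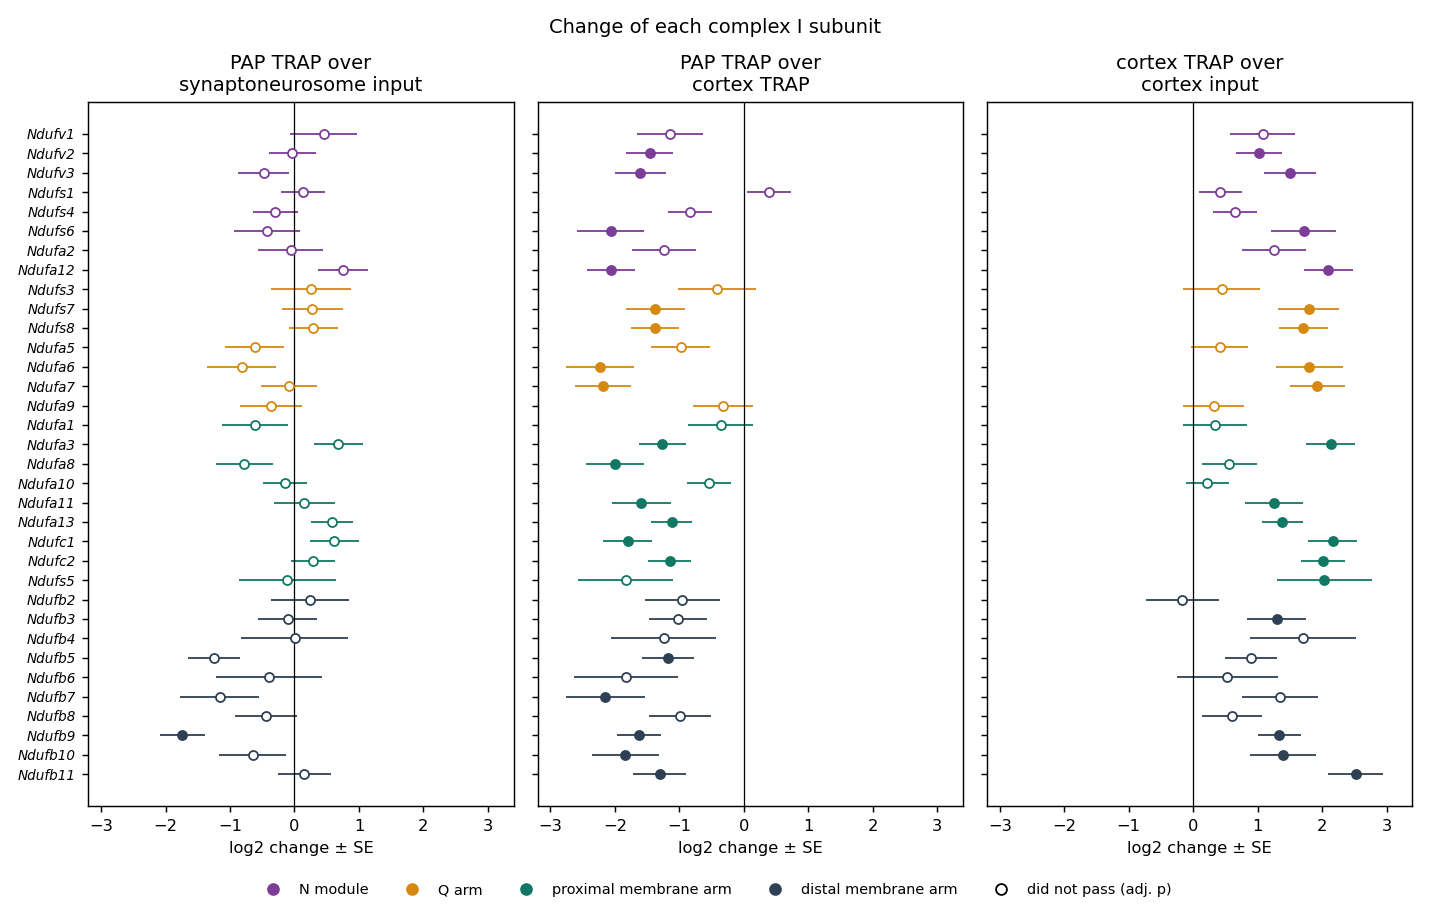
Log2 change with its SE (x axis) for each of the 34 members (y axis), coloured by region of the complex, in 3 comparisons; filled points passed an adjusted p of 0.05. Filled points number 1 in PAP TRAP over synaptoneurosome input, 19 in PAP TRAP over cortex TRAP and 18 in cortex TRAP over cortex input.

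The falls ran through all regions of the complex, with 4 of 8 members of the N module, 4 of 7 of the Q arm, 6 of 9 of the proximal and 5 of 10 of the distal membrane arm. The largest fall was that of Ndufa6, a Q arm subunit of the LYR family that binds mitochondrial acyl carrier protein. It had 5.44, 3.55 and 5.75 normalized CPM in PAP TRAP, against 33.3, 19.5 and 16.4 in cortex TRAP. Its groups did not overlap, and the change was -2.23 ± 0.53 (log2, SE), a ratio of 0.213 (95% interval 0.0988 to 0.461, adjusted p = 0.00323). Ndufa7, an accessory Q arm subunit, had 11.5, 11.2 and 4.35 normalized CPM in PAP TRAP, against 45.1, 44.4 and 33.8 in cortex TRAP. All PAP TRAP libraries were far below all cortex TRAP libraries, with a change of -2.19 ± 0.43 (adjusted p = 6.92e-04). Ndufb7 had 3.16, 4.46 and 1.48 normalized CPM in PAP TRAP, against 19.9, 9.95 and 10.5 in cortex TRAP. The lowest cortex TRAP library lay above the highest PAP TRAP library, and the change was -2.15 ± 0.61 (adjusted p = 0.0108), no longer passing without cortex TRAP replicate 1. Ndufs6, a zinc-binding subunit of the N module, had 7.02, 6.94 and 4.43 normalized CPM in PAP TRAP, against 38.2, 17.4 and 21.5 in cortex TRAP. Again the groups did not overlap, with a change of -2.07 ± 0.51 (adjusted p = 0.00443) that also did not pass without cortex TRAP replicate 1.

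Among the 6 core subunits, Ndufv2, Ndufs7 and Ndufs8 fell and Ndufv1, Ndufs1 and Ndufs3 did not pass. Ndufv2 had 11.6, 19.6 and 17.4 normalized CPM in PAP TRAP, all below its 43.0 to 47.0 in cortex TRAP, with a change of -1.46 ± 0.36 (adjusted p = 0.00428). Ndufs8 had 12.5, 12.7 and 13.1 normalized CPM in PAP TRAP, all below its 25.04 to 38.3 in cortex TRAP, with a change of -1.38 ± 0.37 (adjusted p = 0.00790). The 3 PAP TRAP libraries lay close together for Ndufs8 and were spread for Ndufs7, at 7.11, 22.6 and 18.3 normalized CPM, with a change of -1.37 ± 0.46 (adjusted p = 0.0274). Ndufs8 no longer passed without cortex TRAP replicate 1 or 3, and Ndufs7 without any 1 of the cortex TRAP libraries, without PAP TRAP replicate 1, with the compared groups alone or at a minimum fold of 1.5. Ndufv1 had 7.20, 15.8 and 11.8 normalized CPM in PAP TRAP and Ndufs3 had 3.33, 10.7 and 8.94, and both genes overlapped their cortex TRAP values. Ndufs1 had 29.9, 39.3 and 51.1 normalized CPM in PAP TRAP and overlapped cortex TRAP as well. It was the only member with a change above 0, at 0.39 ± 0.33 (adjusted p = 0.383).

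Members that came closest without passing were Ndufa2 and Ndufs5. Ndufa2 had 5.35, 14.7 and 16.2 normalized CPM in PAP TRAP, against 33.5, 16.8 and 35.4 in cortex TRAP, with PAP TRAP replicate 3 and cortex TRAP replicate 2 nearly meeting (-1.24 ± 0.50, adjusted p = 0.0602). Ndufs5, a small subunit of the intermembrane space side, had 1.93, 3.31 and 1.17 normalized CPM in PAP TRAP, against 8.61, 5.72 and 8.55 in cortex TRAP. The groups were apart but the counts were low, and its change was -1.83 ± 0.74 (adjusted p = 0.0616).

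PAP TRAP over synaptoneurosome input sets the precipitate of the layer against the layer it came from. Here 1 of 34 members fell, Ndufb9, and none rose, where 1.53% of all genes tested fell and 3% rose (4.53% called in either direction). The median change of the members was -0.10, against 0.06 over all genes, with 14 members above 0 and 20 below. At an unadjusted p under 0.05 by the same test there were 2 members, and DESeq2 called 2 lower. In 3 members every PAP TRAP library lay above, and in 3 below, every synaptoneurosome input library, where 12.2% and 9.39% of all genes did so. A change that missed the threshold does not show equal levels: the 95% interval of Ndufs8 ran from -0.50 to 1.09 and that of Ndufs5 from -1.69 to 1.46.

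Ndufb9, like Ndufa6 a LYR subunit that binds acyl carrier protein but in the distal membrane arm, had 20.1, 28.8 and 19.8 normalized CPM in PAP TRAP. It had 70.5, 87.2 and 71.8 normalized CPM in synaptoneurosome input, 109, 57.3 and 45.2 in cortex TRAP and 26.5, 36.6 and 20.8 in cortex input. PAP TRAP and cortex input thus overlapped at the low end, and every synaptoneurosome input and cortex TRAP library was higher than any of these. The change in PAP TRAP against synaptoneurosome input was -1.74 ± 0.35, a ratio of 0.300 (95% interval 0.182 to 0.495, adjusted p = 0.00785), and it was called under all 15 other settings tried, at -1.95 with length-corrected offsets, where 1.98% of all genes were lower. Ndufb9 lies on the plus strand at chr15:58933756-58939488 (GRCm38, GENCODE M21), inside which the annotated gene Gm49356 overlaps on the same strand and shares 202 bases of identical transcript, so reads of that gene may be counted in Ndufb9. Gm49356 has no row of its own in the files.

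Of the members that did not pass in this comparison, Ndufb5 had 9.57, 14.0 and 19.5 normalized CPM in PAP TRAP, against 38.9, 22.4 and 41.1 in synaptoneurosome input. Its groups did not overlap, at -1.25 ± 0.41 (adjusted p = 0.0878). Ndufa12 had 8.43, 10.2 and 9.25 normalized CPM in PAP TRAP, against 4.86, 5.37 and 6.18 in synaptoneurosome input. All PAP TRAP libraries were higher, by 0.76 ± 0.39, which did not pass either (adjusted p = 0.287).

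**Figure D3:**
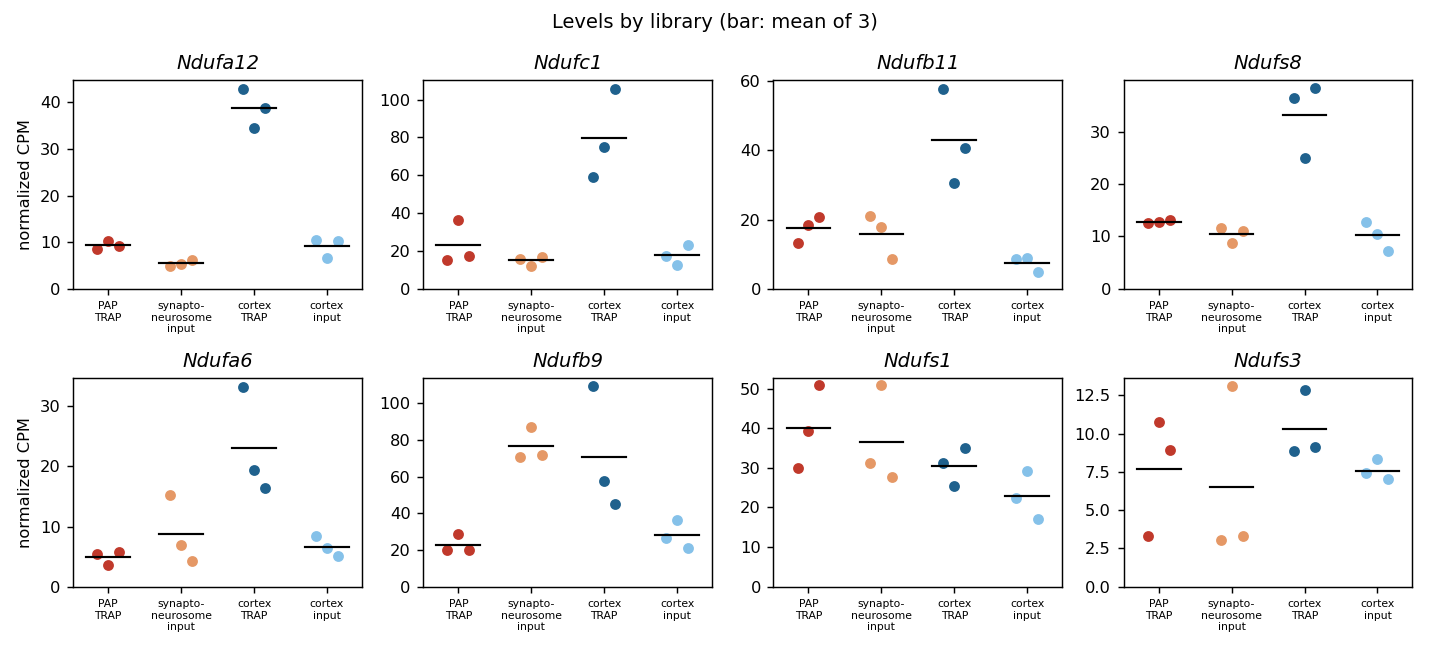
Normalized CPM (y axis, from 0) of 8 members in each library of the 4 groups; points are libraries and bars are means of 3. Ndufa12, Ndufc1, Ndufb11, Ndufs8 and Ndufa6 are highest in cortex TRAP, Ndufb9 is high in synaptoneurosome input and cortex TRAP, and the groups of Ndufs1 and Ndufs3 lie close together.

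In synaptoneurosome input against cortex input, which compares the layer with whole tissue before any precipitation, 1 of 34 members rose and none fell, where 7.26% of all genes tested rose and 2.07% fell (9.32% called in either direction). The median was 0.09, against -0.14 over all genes, and 4 members had an unadjusted p under 0.05. The member that rose was Ndufb9, at 1.45 ± 0.34 or 2.73-fold (95% interval 1.66 to 4.49, adjusted p = 0.0104). All 3 synaptoneurosome inputs lay above all 3 cortex inputs, but the call was lost without cortex input replicate 1 or 3. With length-corrected offsets 4 members were called higher, Ndufb9, Ndufb5, Ndufb11 and Ndufc2, where 8.94% of all genes were. On the main scale Ndufb11 had 21.0, 17.9 and 8.49 normalized CPM in synaptoneurosome input and 8.70, 8.84 and 4.95 in cortex input, which overlapped (1.06 ± 0.42, adjusted p = 0.121). Ndufb5 had 38.9, 22.4 and 41.1 normalized CPM in synaptoneurosome input and 24.0, 19.6 and 8.93 in cortex input, which overlapped too (0.96 ± 0.40, adjusted p = 0.146).

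Whether the enrichment over input differed between the layer and whole tissue was tested as a difference of enrichments, PAP TRAP over synaptoneurosome input minus cortex TRAP over cortex input. Of the 34 members, 10 were lower and none higher, where 7.32% of all genes tested were lower and 12.9% higher (20.2% called in either direction). The median was -1.37, against 0.03 over all genes, and 17 members had an unadjusted p under 0.05. The members called were Ndufb9, Ndufa6, Ndufb7, Ndufb11, Ndufb5, Ndufs6, Ndufa7, Ndufv3, Ndufc2 and Ndufc1, with differences of -3.07 to -1.55. For Ndufb9 the enrichment was -1.74 in the layer and 1.34 in whole tissue, a difference of -3.07 ± 0.48 (adjusted p = 1.41e-04). For Ndufb11 it was 0.15 in the layer and 2.52 in whole tissue, a difference of -2.37 ± 0.58 (adjusted p = 0.00652). Ndufb10, an intermembrane space side subunit, and Ndufa3 came closest without passing, at -2.04 ± 0.73 (adjusted p = 0.0541) and -1.45 ± 0.53 (adjusted p = 0.0589). With length-corrected offsets Ndufb9 alone was called, at -2.19 (adjusted p = 0.00221), where 8.06% of all genes were lower, though 33 of 34 differences were then below 0 with a median of -0.59. The count called was 3 without cortex input replicate 3, 4 without cortex TRAP replicate 1, 5 without cortex input replicate 2 or cortex TRAP replicate 3, and 6 without synaptoneurosome input replicate 2.

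The astrocyte markers moved the same way as the members in 3 comparisons: all 16 rose in cortex TRAP over cortex input, 13 fell in PAP TRAP against cortex TRAP, and 15 were lower in the difference of enrichments. They parted from the members in the other comparisons. In synaptoneurosome input against cortex input 12 of the 16 rose (median 1.66, against 0.09 for the members), and in PAP TRAP over synaptoneurosome input 6 rose (median 0.90, against -0.10 for the members). Of the 12 neuronal markers, all fell in cortex TRAP over cortex input, and 11 rose in PAP TRAP against cortex TRAP. Of the 8 oligodendrocyte markers, 6 rose in that comparison, with 0.787% to 1.05% of nuclear counts in PAP TRAP against 0.0601% to 0.0896% in cortex TRAP, and so did 6 of the 8 microglial markers. Of the 4 endothelial markers tested, 3 rose there too (median 4.53), though the list of 6 held only 7 to 17 counts per cortex TRAP library. The oligodendrocyte markers held 0.546% to 0.744% in synaptoneurosome input, below every PAP TRAP library. The part of the mixture of cell types in the members' changes was not tested.

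The members are short messages, as the description under which the set was named already stated. Their annotated transcripts have a median length of 868 nt (419 to 4371 nt), against 3072 nt over all genes tested with a length, of which 4.73% were shorter than the members' median. Across the 34 members, longer transcripts had smaller rises in cortex TRAP over cortex input (Spearman's rho = -0.34) and smaller falls in PAP TRAP against cortex TRAP (rho = 0.46). Without Ndufb2, the member annotated at 4371 nt, these were -0.28 and 0.42. Over 13288 genes the values were -0.30 and 0.42, so the same slope ran through the whole table. In PAP TRAP over synaptoneurosome input, rho was 0.25 over the members and 0.02 over all genes. Points share the same 12 libraries, so these coefficients are descriptions.

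In the shortest decile of all genes, 56 to 1195 nt, which holds 24 of the 34 members, the median change in cortex TRAP over cortex input was 1.10 over the decile's 1331 genes and 1.37 over its members. In PAP TRAP against cortex TRAP it was -1.41 over those genes and -1.38 over the members. In the difference of enrichments it was -0.995 over the genes and -1.48 over the members. Of the decile's genes, 22.6% were called higher in cortex TRAP over cortex input, as were 14 of its 24 members. In PAP TRAP against cortex TRAP 28.0% of them were called lower, as were 15 of the 24. In the difference of enrichments 8.94% were called lower, as were 8 of the 24. Short genes as a whole thus moved with the members, by about the same size in PAP TRAP against cortex TRAP. In the longest decile, from 6617 nt, the median was -0.96 in cortex TRAP over cortex input and 1.18 in PAP TRAP against cortex TRAP, and no member is that long. What the relation with length came from was not tested.

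**Figure D4:**
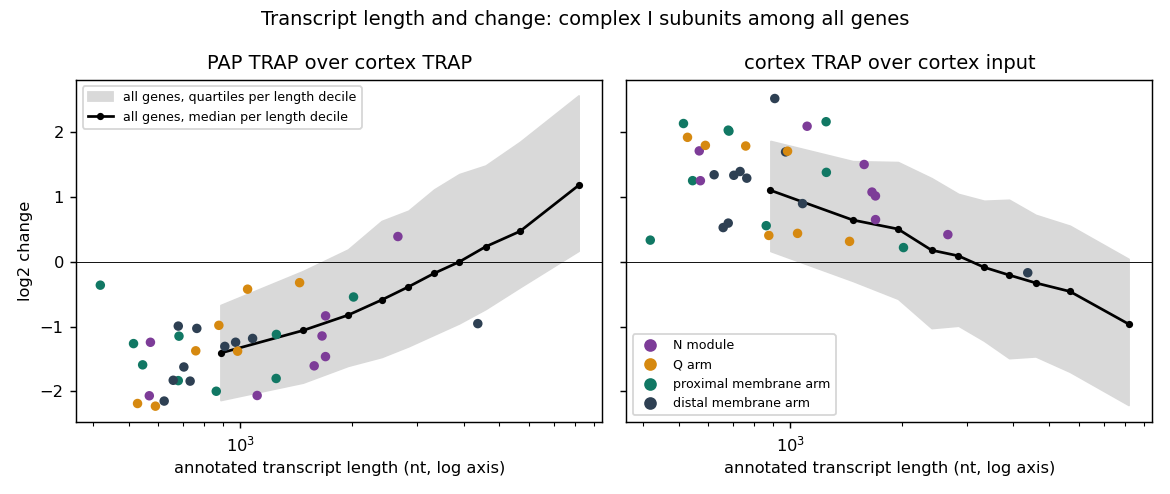
Log2 change (y axis) against annotated transcript length in nt (log x axis) in PAP TRAP over cortex TRAP and cortex TRAP over cortex input; the line gives the median and the grey band the quartiles of all genes per decile of length, and points are the 34 members coloured by region. The shortest decile has medians of -1.41 and 1.10, and most members lie at or left of it.

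With a smooth correction of each library for transcript length, the 5 members still higher in cortex TRAP over cortex input were Ndufb11 at 1.58 (adjusted p = 0.00545), Ndufc1 at 1.42 (adjusted p = 0.00505), Ndufa12 at 1.26 (adjusted p = 0.0126), Ndufa3 at 0.93 (adjusted p = 0.0402) and Ndufc2 at 0.92 (adjusted p = 0.0371). Their number is near the 16% of all genes called higher with the same correction. These members were also called higher in that comparison under each of the 15 settings tried for single members. The length correction is 1 of those 15, so members it dropped could not qualify. Ndufs8, Ndufa13 and Ndufa7 were called under 14 of the 15 and lost with the length correction only. The correction was fitted on all genes and takes away any change that goes with length, of whatever origin.

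**Figure D5:**
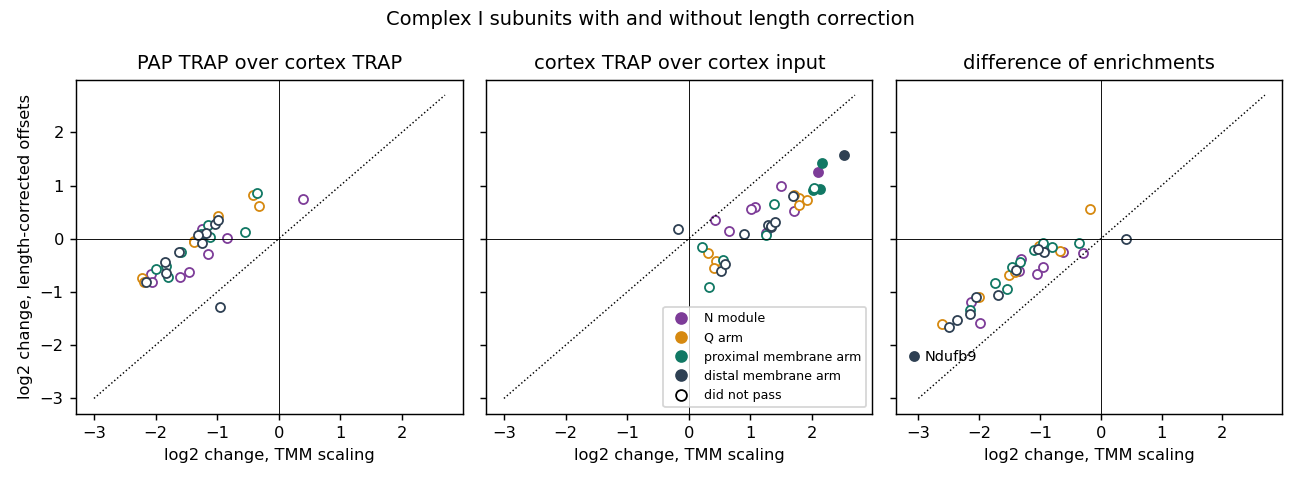
Log2 change of each member with length-corrected offsets (y axis) against that with TMM scaling (x axis) in 3 comparisons, with filled points passing an adjusted p of 0.05 after the correction and the dotted line marking equal values. After the correction 0, 5 and 1 members were called, from left to right, and the 1 in the difference of enrichments was Ndufb9.

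Levels between members were compared per kilobase of transcript. In PAP TRAP, Ndufc2 was highest at 51.9 ± 6.33 normalized CPM per kb, followed by Ndufa3 at 37.7 ± 13.6 and Ndufb9 at 32.6 ± 7.29 (SD, n = 3), and the spreads of neighbouring members met. In synaptoneurosome input Ndufb9 stood above all others at 109 ± 13.2 per kb, with Ndufc2 next at 42.5 ± 7.23. The lowest in PAP TRAP was Ndufb2 at 0.858 ± 0.291 per kb, which rests on its 4371 nt main transcript, while another of its coding transcripts is 455 nt long.

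Other parts of complex I and of the chain set the members in context. Of the 7 subunits encoded by the mitochondrial chromosome, 6 were tested. They moved against the nuclear ones in 3 comparisons: all 6 fell in cortex TRAP over cortex input (median -5.90), all 6 rose in PAP TRAP against cortex TRAP (median 7.71), and 5 were higher in the difference of enrichments (median 3.24). In PAP TRAP over synaptoneurosome input 5 of them fell (median -2.55), and in synaptoneurosome input against cortex input all 6 rose (median 4.35), where the members' only call, Ndufb9, went the same way each time. mt-Nd4, a proton-pumping subunit, had 12606, 8171 and 4592 normalized CPM in PAP TRAP, 49284, 33147 and 16651 in synaptoneurosome input, 17.2, 16.4 and 21.5 in cortex TRAP and 1663, 1555 and 2014 in cortex input. The 4 groups did not overlap, with synaptoneurosome input highest, then PAP TRAP, cortex input and cortex TRAP.

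The nuclear-encoded subunits of complexes II to V, 38 of 39 tested, moved much as the members did. In cortex TRAP over cortex input 29 rose and none fell (median 1.41), in PAP TRAP against cortex TRAP 28 fell (median -1.32), and in the difference of enrichments 18 were lower (median -1.33). In PAP TRAP over synaptoneurosome input none was called, and in synaptoneurosome input against cortex input Cox6a1, a subunit of cytochrome c oxidase, rose by 1.35 ± 0.30 (adjusted p = 0.00623). With length-corrected offsets 4 of the 38 were higher in cortex TRAP over cortex input, where 16% of all genes were, and 3 lower in PAP TRAP against cortex TRAP, where 11.7% were.

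Of 17 assembly factors of complex I with a row, none was called in cortex TRAP over cortex input, where 35.4% of all genes tested were (median 0.54, 3 at an unadjusted p under 0.05). In PAP TRAP against cortex TRAP, 3 of the 17 fell, a share near the 14.6% of all genes tested that fell. Their log2 changes were -1.38 ± 0.36 for Ndufaf4 (adjusted p = 0.00658), -2.08 ± 0.67 for Dmac1 (adjusted p = 0.0218) and -2.32 ± 0.85 for Ndufaf8 (adjusted p = 0.0407). Of 11 regulators of mitochondrial biogenesis, 1 rose and 1 fell in cortex TRAP over cortex input, where 15.9% and 19.5% of all genes tested did. Gabpa, a subunit of the ETS factor GABP, rose by 1.61 ± 0.35 (adjusted p = 0.00129). Ppargc1b, a coactivator of respiratory genes, fell by 4.91 ± 1.03 (adjusted p = 8.83e-04). In PAP TRAP against cortex TRAP, 2 of the 11 regulators fell and 2 rose, where 14.6% and 19.3% of all genes tested did. Tfam, which packages and transcribes mitochondrial DNA, fell by 2.08 ± 0.61 (adjusted p = 0.0129), and Gabpa fell by 0.94 ± 0.35 (adjusted p = 0.0433). The coactivators Ppargc1b and Pprc1 rose by 5.55 ± 1.05 (adjusted p = 4.45e-04) and 1.93 ± 0.67 (adjusted p = 0.0328). Ppargc1b rested on counts of 1, 0 and 9 in cortex TRAP, so its fitted changes depend on the prior count and are no bound.

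Near-identical copies and overlapping neighbours limit how the members were counted. At 95% identity over at least 200 bases, 11 members matched another annotated gene, among them Ndufs3 with the pseudogene Gm12251 over 792 bases, Ndufb11 with Gm6444 over 456 bases and Ndufa12 with Gm15920 over 402 bases. These pseudogenes held 45, 22 and 67 counts over all libraries, against 1193, 3254 and 2685 for the members. The matches of Ndufa13, Ndufb5, Ndufb6 and Ndufb9 are not copies elsewhere but overlapping genes at the same place. Among these genes, Mrpl47 had 920 counts against 3324 for Ndufb5, and Smim27 had 190 against 1023 for Ndufb6. Reads that align equally well to a member and to a copy elsewhere may have been dropped. Reads not aligned uniquely made up 21.3% to 29.3% of counts in PAP TRAP, 16.1% to 19.5% in synaptoneurosome input, 29.9% to 32.5% in cortex TRAP and 17.5% to 18.6% in cortex input, and their part in the members' values was not tested. The annotated spans of 17 members overlap another gene, 6 of them on the same strand, and no source used here gives the strand setting of the counting. Reads of overlapping genes may therefore have been split or assigned to either.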

How the data were processed

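RNA of 12 libraries was measured by sequencing. The authors deposited raw counts, whole numbers of reads for each gene without normalization, as their values show. HTSeq, STAR, Bowtie2 and Trimmomatic 0.32 are listed, per the submitters' processing notes, without roles. The build, the gene annotation and the strandedness of counting were not given in the sources used here. Per the labels' protocols, cDNA was made from 2 ng RNA and amplified by SPIA, and 500 ng of fragments entered the libraries. Amplified reads without molecular identifiers are not independent molecules.

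Symbols, lengths and positions came from GENCODE M21 (GRCm38) by identifier; 40254 of 41388 identifiers had a symbol. Rows naming no gene held 20.3% to 55.5% of counts and stayed out. After filterByExpr (minimum count 10, total 15), 13364 genes were fitted over all 12 libraries, with 1 mean per group, by edgeR 4.0.16 (R 4.3.3), using its quasi-likelihood F test, TMM scaling (factors 0.191 to 2.46) and Benjamini-Hochberg adjustment over all genes. Calls are at an adjusted p of 0.05, and "rose" and "fell" refer to calls. The script was tested on simulated data.

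Alternatives were RLE scaling, no filter, DESeq2 1.42.0, a replicate block, a minimum fold of 1.5 (glmTreat), no mitochondrial genes, offsets corrected for length or GC content (loess span 0.3), the compared groups alone, and each library left out. Values per library are given for up to 4 called members with the largest change in each direction and up to 2 uncalled with the smallest p per comparison, and for the core subunits. Members and lists were chosen with earlier results of these data known.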

Additional observations from a re-analysis of the deposited data

Results flagged for a closer look

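The enrichment over input differed between the synaptoneurosome layer and whole tissue for 10 members by the test of that difference (edgeR's quasi-likelihood test, adjusted p under 0.05), where 7.32% of all genes tested were lower. The log2 differences, PAP TRAP over synaptoneurosome input minus cortex TRAP over cortex input, were -3.07 for Ndufb9, -2.62 for Ndufa6, -2.50 for Ndufb7, -2.37 for Ndufb11 and -2.15 for Ndufb5. For Ndufs6 the difference was -2.14, for Ndufa7 -2.01, for Ndufv3 -1.98, for Ndufc2 -1.73 and for Ndufc1 -1.55. Ndufb9 was called under all 20 other settings tried, from -3.30 to -2.19. With length-corrected offsets the other members did not pass. Groups of 3 libraries are too small for a check of single outlying libraries.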

How the results depend on the processing

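Members called higher in cortex TRAP over cortex input numbered 18, and 5 with length-corrected offsets, and 8 to 15 without single libraries of these groups. Members called lower in PAP TRAP against cortex TRAP numbered 19, 0 with length-corrected offsets, and 10 to 20 without single libraries. Members lower in PAP TRAP over synaptoneurosome input numbered 1, and 2 with DESeq2, and 1 without any single library. Members higher in synaptoneurosome input over cortex input numbered 1, 2 with DESeq2, 0 at a minimum fold of 1.5, 4 with length-corrected offsets, and 0 to 1 without single libraries. Members lower in the difference of enrichments numbered 10, 1 with length-corrected offsets, and 3 to 12 without single libraries. Without mitochondrial genes 7 of those 10 were still called. Other settings stayed within 1.5 times these counts.

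Length-corrected offsets turned the sign of 9 members in cortex TRAP over cortex input, among them Ndufs3 (-0.41), and of 14 in PAP TRAP against cortex TRAP, among them Ndufs3 (0.82), Ndufa2 (0.18), Ndufb5 (0.11), Ndufc2 (0.25), Ndufb11 (0.069), Ndufa3 (0.10) and Ndufa13 (0.035). None of these passed after the correction. That correction removes change going with length by its construction. With the replicate block, 17, 19, 1, 1 and 11 members were called in these comparisons (cortex TRAP over input, PAP TRAP against cortex TRAP, PAP TRAP over its input, between inputs, and the difference). Deviations of same-numbered libraries of different groups correlated at 0.00575 to 0.0804, above 0 in all 18 pairs. Those of differently numbered libraries ran from -0.0697 to 0.0551 over 36 pairs. The main fit did not pair libraries, and a weak pairing by number cannot be dismissed from these values. The median SE of the members was 0.46 in PAP TRAP over synaptoneurosome input and 0.45 in PAP TRAP against cortex TRAP.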
